A study of Homo sapiens with 10 samples.

Results

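NAA50, KCTD12, RAMP3, CLCA2 and CD44 are 5 genes, of 19775 named on the array, that were chosen by their measured signal, which was lower in p53i than in LacZi cells at each time with D3. All of their probe sets that carry a single gene symbol were taken, which gave 23 of the 54675 probe sets on the array: 3 for NAA50, 2 for KCTD12, 1 for RAMP3, 4 for CLCA2 and 13 for CD44. The cells were SKBR3, an established HER2-amplified breast carcinoma line with mutant p53 (p53R175H), and every group shared that genotype and culture in charcoal-stripped serum. The p53i cells received siRNA directed at p53, and the LacZi cells, as the negative control, siRNA directed at the bacterial gene LacZ. Each siRNA was represented by 2 untreated arrays and by 1 array each after 8, 20 and 50 h with 100 nM D3 (calcitriol, the hormonal form of vitamin D3), and the descriptions disagree on how long after transfection it was added. The title of the p53i 8 h array spells its siRNA differently (p53Zi), and the array was placed by its source name, which gives a knockdown of mutant p53; its siRNA field also gives p53i. The labels call the untreated arrays biological replicates and say nothing of separate cultures for the D3 arrays, so the p-values below speak of the spread among these arrays, which may be technical. The siRNA's target was not analysed here, so the knockdown itself has no value below.

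The 5 genes belong to no single pathway. NAA50 is an N-terminal acetyltransferase that works beside the NAA10 and NAA15 subunits of the ribosome-bound NatA enzyme and also serves sister chromatid cohesion. KCTD12 is an auxiliary subunit of GABA-B receptors, which are G protein-coupled receptors for the transmitter GABA. RAMP3 is a single-pass membrane protein that pairs with the calcitonin receptor-like receptor, CALCRL, and turns it into a receptor for adrenomedullin. CLCA2 is a membrane protein that modulates calcium-activated chloride currents, is found in basal and squamous epithelia, and is known as a gene that wild-type p53 and its relative p63 can induce. CD44 is the main cell-surface receptor for hyaluronan, is made in many splice forms, and is usually low in luminal breast cells.

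The starts of the genes were searched for 3 sequence motifs, on both strands, in windows from 250 bases before to 50 bases after the transcription start (RefSeq, GRCh38.p14). All 5 genes had a window. AGGTCA, the half-site bound by the vitamin D receptor and many other nuclear receptors, was found in 2 of the 5 windows, against 13.8% of 35116 windows in all. These 2 stretches are shown, with AGGTCA in capitals, because they are the only places where these windows hold it. The NAA50 match begins at base 4 of the transcript (chr3:113746229-113746258, minus strand), and the CD44 match begins 52 bases before the start (chr11:35139107-35139136, plus strand).
NAA50: gggcggggtgaaAGGTCAcagcgcggcagc
CD44: tccctccgtcttAGGTCActgttttcaacc
The 250 bases before the start of CLCA2, the gene among the 5 with a called D3 effect, are given in full and hold no capitals because they contain none of the motifs (chr1:86423921-86424170, plus strand).
CLCA2: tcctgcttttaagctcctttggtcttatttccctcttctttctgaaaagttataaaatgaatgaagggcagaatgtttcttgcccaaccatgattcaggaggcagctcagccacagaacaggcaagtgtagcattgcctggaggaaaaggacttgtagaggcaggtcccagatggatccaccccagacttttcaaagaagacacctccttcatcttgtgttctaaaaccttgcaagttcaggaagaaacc
This CLCA2 stretch was 44.8% G and C, against 65.6% for NAA50, 62.4% for CD44 and 75.6% each for KCTD12 and RAMP3, with a median of 58.0% over all windows. The GC box GGGCGG was found in 4 of the 5 windows (all but that of CLCA2), against 45.0% of all windows. The p53 half-site was found in none of the 5, against 6.63% of all windows. A match here is a run of letters and not a measured site of binding.

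The 10 arrays had median signals of 35.7 to 44.3. In the cells' own markers, the luminal and HER2-amplicon list, 6 of 7 genes were above the signal filter, among them ERBB2 at 12690.0 to 19099 signal units, while the cadherin gene CDH1 was at 2.80 to 23.9. The summed signal of that list was 76213 to 99715 on the p53i arrays and 67101 to 74313 on the LacZi arrays, which did not overlap, and its part in the differences below was not tested. The ACTB control probe sets at both transcript ends gave a 3' over 5' ratio, which reads RNA quality, of 4.39 to 8.72 on the p53i arrays and 3.79 to 5.05 on the LacZi arrays. It is taken up again below, where fits with this ratio as a covariate or without the 2 arrays highest in it are given for some probe sets. Of the 23 probe sets, 12 were above the filter, which kept the upper 50% by mean over all arrays (a signal of about 35.4), and 11 were below it, 1 each of KCTD12 and CLCA2 and 9 of CD44.

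The siRNA difference is the contrast on which the genes were picked, so its values are a description and carry no test. Each array reads a whole culture, so fewer cells with a transcript and less of it per cell cannot be told apart. Differences are p53i minus LacZi on the scale log2(signal + 16), on which -1 means 2-fold lower in p53i cells, and the scale understates changes of weak signals. Of the 23 probe sets, 12 were lower in p53i cells in all 4 comparisons matched on D3 time, and 12 were lower at all 3 D3 times (over all probe sets the shares were 11.3% and 16.5%). For 6 of the 23, every p53i signal lay below every LacZi signal (1.70% of all probe sets). Among the 12 above the filter, 4 were at least 2-fold lower without D3. After 8, 20 and 50 h there were 3, 6 and 6. The shares of the 27337 probe sets above the filter were 1.42%, 1.41%, 2.02% and 2.00%. In all 4 comparisons 0 of the 12 were at least 2-fold lower (0.0183% of the 27337). KCTD12 with 212192_at averaged 24.5 in p53i cells, below the filter, and 73.2 in LacZi cells. RAMP3 averaged 22.5 and 61.6, and CLCA2 with 217528_at 33.6 and 90.0. The genes were picked on this contrast, and such probe sets passed the filter through their LacZi arrays. The shares are therefore no measure of how unusual the counts are.

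**Figure D1:**
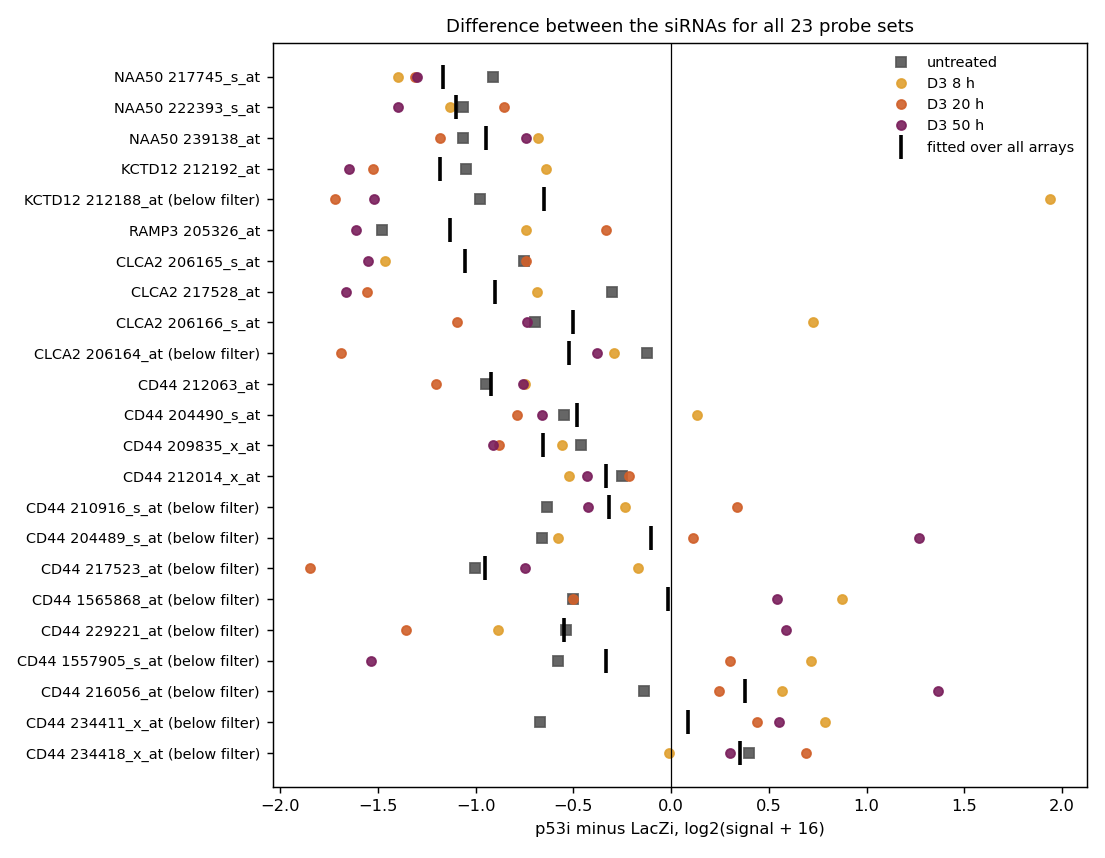
Difference between p53i and LacZi arrays (log2(signal + 16), horizontal axis) for the 23 probe sets (rows), with squares for untreated cells, circles for the 3 D3 times and black bars for the fit over all arrays. The 3 NAA50 probe sets lie left of 0 throughout, while the CD44 probe sets below the filter scatter on both sides of 0.

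NAA50 was lower in p53i cells at every time with all 3 of its probe sets. With the probe set 217745_s_at, which had the highest mean, the signal was 1040 and 826 in untreated p53i cells and 779, 772 and 576 after 8, 20 and 50 h with D3, against 1839 and 1682 in untreated LacZi cells and 2082, 1937 and 1441 at the same times. Every p53i array was below every LacZi array. The p53i arrays averaged 799 ± 166 and the LacZi arrays 1796 ± 246 (SD, n = 5 each, over the D3 times). Without D3 the difference was -0.91, and after 8, 20 and 50 h it was -1.40, -1.31 and -1.30.

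The other NAA50 probe sets gave the same picture at other signal levels. With 222393_s_at the p53i signals were 157 to 195 and the LacZi signals 321 to 448. With 239138_at they were 25.2 to 47.8 in p53i cells and 69.5 to 105 in LacZi cells. The groups did not overlap in either. The fitted differences of the 3 probe sets were -1.17 ± 0.10, -1.10 ± 0.12 and -0.95 ± 0.18 (SE), so the probe sets of this gene differed from each other by about their errors. The time with the smallest difference was not shared: it was the untreated pair for 217745_s_at, 20 h for 222393_s_at and 8 h for 239138_at. When the 2 arrays highest in ACTB ratio were left out the differences were -1.11, -1.14 and -0.83.

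Ordered by level with 217745_s_at, the p53i groups ran from 576 at 50 h over 772 at 20 h and 779 at 8 h to 933 ± 151 untreated (SD, n = 2), and the LacZi groups followed from 1441 at 50 h over 1760 ± 111 untreated (SD, n = 2) and 1937 at 20 h to 2082 at 8 h. The step between the siRNAs, 0.63 on the log2 scale, was the widest in this order. The p53i levels at 20 and 8 h differed by less than the residual SD of 0.19, as did the LacZi levels untreated and at 20 h and those at 20 and 8 h, and the other steps were larger.

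Of the other N-terminal acetyltransferase genes and their partners, 11 of the 15 listed had a probe set used here and all 11 were above the filter. NAA15, the scaffold that anchors the NatA catalytic subunit and NAA50 at the ribosome, fell in p53i cells by 0.60 ± 0.09 (SE) on the log2 scale (limma adjusted p = 0.00816). Its signal with 226998_at was 408 and 426 in untreated p53i cells and 385, 370 and 321 at 8, 20 and 50 h, against 614 and 564 in untreated LacZi cells and 588, 573 and 580 at those times. No p53i array reached the lowest LacZi array. Both other NAA15 probe sets above the filter had differences below 0, of -0.72 ± 0.20 and -0.59 ± 0.17 (SE), which missed the threshold (limma adjusted p = 0.0677 and 0.0763), and with the first of these the 8 h arrays stood at 258 in p53i cells and 242 in LacZi cells. NAA15 was not called without either 20 h array (limma adjusted p = 0.0524 without the p53i one and 0.0536 without the LacZi one) or with the ACTB ratio as covariate (0.0509).

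The remaining 10 genes of that list were not called between the siRNAs, so 0 rose and 1 fell (1.91% of all probe sets tested were called higher and 1.63% lower). The list's median difference was -0.08, against -0.02 over all probe sets tested. NAA16, the paralogue of NAA15, had a difference of 0.07, with means of 601 in p53i cells and 572 in LacZi cells. NAA20 and NAA25, which form the NatB enzyme, had differences of -0.04 and -0.20. METAP2, a methionine aminopeptidase that acts before N-terminal acetylation, had a difference of -0.33 (limma adjusted p = 0.0698).

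**Figure D2:**
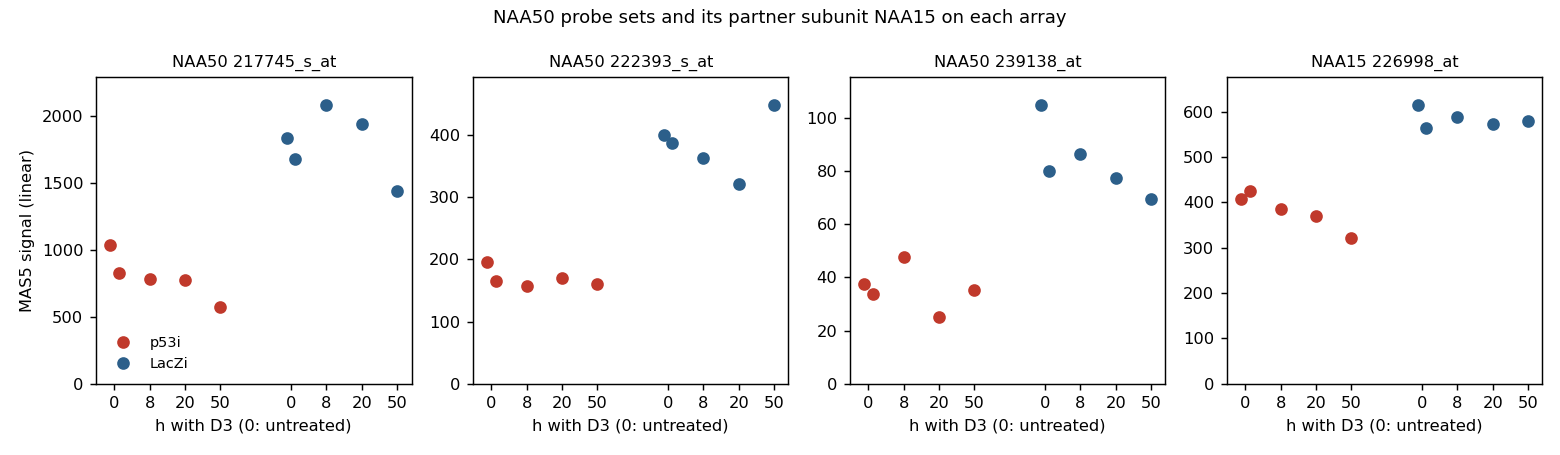
Signal (linear, vertical axes starting at 0) of the 3 NAA50 probe sets and of NAA15 on each array, with p53i left in red and LacZi right in blue, by hours with D3 (0 is untreated, 2 arrays). In each panel all 5 p53i points lie below all 5 LacZi points, and the NAA15 points span 321 to 426 in p53i cells and 564 to 614 in LacZi cells.

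KCTD12 was lower in p53i cells with 1 of its 2 probe sets at every time. With 212192_at the signal was 44.9 and 17.3 in untreated p53i cells and 29.9, 17.9 and 12.4 after 8, 20 and 50 h with D3, against 86.3 and 69.0 in untreated LacZi cells and 55.4, 81.8 and 73.3 at those times. The groups did not overlap. Without D3 it differed by -1.05, after 8, 20 and 50 h by -0.64, -1.53 and -1.65, and in the fit over all arrays by -1.18 ± 0.24 (SE). In the order of levels the widest step, 0.64, lay between the p53i 8 h and the LacZi 8 h array, and each step among the 4 LacZi groups was below the residual SD of 0.39.

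The second KCTD12 probe set, 212188_at, went the other way at 8 h. It had 76.1 on the p53i 8 h array and 7.99 on the LacZi 8 h array, a difference of 1.94. Elsewhere it had 36.9 and 6.34 in untreated p53i cells and 9.96 and 10.9 at 20 and 50 h, against 45.9 and 57.8 in untreated LacZi cells and 69.6 and 61.3. It lay below the filter, its residual SD was 1.02, and its fitted difference was -0.65 ± 0.47 (SE). A fit that held the ACTB ratio as covariate gave a difference of 0.27 for this probe set and of -0.83 for 212192_at.

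The GABA-B receptor subunits, with which KCTD12 assembles, were not called. GABBR2 averaged 103 in p53i cells and 195 in LacZi cells, a difference of -0.82 ± 0.29 (SE, limma adjusted p = 0.139), and GABBR1 had a difference of -0.05. KCTD16, which like KCTD12 binds GABBR2, had signals of 2.83 to 28.0 and lay below the filter. Of 23 genes of the KCTD family and its partners, 15 were above the filter, and 0 rose and 0 fell between the siRNAs (1.91% and 1.63% of all probe sets tested). Of the 15, 5 had an unadjusted limma p below 0.05, as did 20.2% of all probe sets tested in this contrast. The median difference of the 15 was -0.06.

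RAMP3 had 1 probe set, 205326_at, with weak and uneven signals in p53i cells. It had 4.57 and 35.6 in untreated p53i cells and 23.4, 44.0 and 4.97 after 8, 20 and 50 h with D3, against 80.4 and 69.7 in untreated LacZi cells and 50.1, 59.5 and 48.2 at those times. The groups did not overlap, but the highest p53i array (44.0, at 20 h) lay close to the lowest LacZi array (48.2, at 50 h). Without D3 the difference stood at -1.48, and after 8, 20 and 50 h at -0.74, -0.33 and -1.61. It was -1.13 ± 0.30 (SE) in the fit over all arrays, and the residual SD was 0.55. In the order of levels each step from the p53i 20 h array up through the 4 LacZi groups was smaller than that SD, and the step from p53i 8 h up to p53i 20 h, 0.61, was larger. The 2 untreated p53i arrays were 1.33 apart on the log2 scale, more than the fitted difference.

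The size of the RAMP3 difference depended on the offset: the fitted difference was -0.56 when 64 was added in place of 16 and -1.98 when nothing was added. The same pair of settings gave -0.64 and -1.72 for KCTD12 with 212192_at, -0.63 and -1.42 for CLCA2 with 206165_s_at, -0.64 and -1.09 for CD44 with 212063_at, and -1.12 and -1.18 for NAA50 with 217745_s_at. With the ACTB ratio as covariate, the differences were -1.48 for RAMP3, -1.14 for CLCA2 with 206165_s_at and -1.16 for CD44 with 212063_at. Without the 2 arrays highest in that ratio they were -1.57, -1.19 and -1.03. These 2 fits gave -0.21 and -0.29 for CD44 with 204490_s_at (-0.48 in the main fit). For CLCA2 with 206164_at they gave -0.14 and -0.04 (-0.52 in the main fit). RAMP1, which pairs with CALCRL to make the receptor for calcitonin gene-related peptide, averaged 77.9 in p53i cells and 63.2 in LacZi cells, a difference of 0.23 (limma adjusted p = 0.518). RAMP2, CALCRL and the calcitonin receptor gene CALCR had signals of 1.47 to 36.4 over all arrays and lay below the filter. ADM, the gene of the ligand adrenomedullin, had a difference of -0.32 (limma adjusted p = 0.388). Of 14 gene symbols listed for RAMPs, calcitonin-family receptors, their ligands and some other receptors, 5 were above the filter. Between the siRNAs 0 of them rose and 0 fell (1.91% and 1.63% of all probe sets tested). Of the 5, 0 had an unadjusted limma p below 0.05, against 20.2% of all.

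CLCA2 was lower in p53i cells at every time with 3 of its 4 probe sets. With 206165_s_at the signal was 20.7 and 18.5 in untreated p53i cells and 17.1, 60.8 and 60.3 after 8, 20 and 50 h with D3, against 34.0 and 55.5 in untreated LacZi cells and 75.2, 113 and 208 at those times. The siRNA groups overlapped when times were pooled, because the p53i arrays at 20 and 50 h were above the untreated LacZi arrays. The matched differences were -0.75 without D3 and -1.46, -0.74 and -1.55 after 8, 20 and 50 h, and the fit over all arrays gave -1.05 ± 0.21 (SE). The widest steps in the order of levels were 0.80, between the LacZi arrays at 20 and 50 h, and 0.75, between untreated p53i and untreated LacZi cells, both above the residual SD of 0.31.

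The CLCA2 probe sets disagreed about 8 h. With 217528_at the difference was -0.69 there and with 206166_s_at it was 0.73, from signals of 42.4 on the p53i array and 19.3 on the LacZi array. At 20 h these probe sets had differences of -1.56 and -1.09, and at 50 h of -1.66 and -0.74. Their fitted differences were -0.90 ± 0.27 and -0.50 ± 0.29 (SE). The probe set 206164_at lay below the filter, with signals of 3.29 to 30.1 in p53i cells and 14.1 to 46.1 in LacZi cells. The relatives CLCA1 and CLCA4 were below the filter as well, with signals of 2.63 to 53.3 and 0.904 to 22.4. The basal and myoepithelial markers are genes of cells that carry CLCA2. Their summed signal was 161 to 298 on the p53i arrays and 190.1 to 426 on the LacZi arrays. Among them KRT5 averaged 32.6 in p53i cells and 76.3 in LacZi cells, and MYLK 100.3 and 115.9. ACTA2, at 60.03 and 51.36, and OXTR, at 20.79 and 15.68, went the other way. KRT14 averaged 10.66 and 10.95, and it and OXTR lay below the filter. The part of these markers in the CLCA2 difference was not tested. Of 13 genes of the CLCA family and other chloride channels, 9 were above the filter, and 0 rose and 0 fell between the siRNAs (1.91% and 1.63% of all probe sets tested). Of the 9, 1 had an unadjusted limma p below 0.05, against 20.2% of all.

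CD44 was lower in p53i cells at each time with 4 of its 13 probe sets. With 212063_at the signal was 38.5 and 92.0 in untreated p53i cells and 79.8, 54.5 and 68.3 after 8, 20 and 50 h with D3, against 90.9 and 189 in untreated LacZi cells and 145, 147 and 127 at those times. The groups overlapped by a single pair of arrays, untreated p53i replicate 2 (92.0) and untreated LacZi replicate 1 (90.9). Matched differences were -0.95 without D3 and -0.75, -1.20 and -0.76 after 8, 20 and 50 h, against -0.92 ± 0.23 (SE) in the fit over all arrays. The widest step in the order of levels, 0.58, separated the p53i from the LacZi groups, and within each siRNA neighbouring levels differed by less than the residual SD of 0.45. That order uses the mean of the 2 untreated arrays. These were 0.99 apart in p53i cells and 0.94 in LacZi cells on the log2 scale, each more than the fitted difference. Replicate 1 was the lower in both siRNAs.

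The 3 other CD44 probe sets above the filter had smaller fitted differences. They were -0.66 ± 0.22 for 209835_x_at, -0.48 ± 0.20 for 204490_s_at and -0.34 ± 0.23 for 212014_x_at (SE). By the array maker's convention an x in the name marks probes that can bind other transcripts. 204490_s_at had a difference of 0.13 at 8 h, from 76.3 on the p53i array and 68.1 on the LacZi array. The 9 probe sets below the filter had signals of 0.421 to 70.8 and fitted differences of -0.95 to 0.38, of which 6 were below 0 and 3 above. Among them 217523_at, at 0.421 to 31.8 in p53i cells and 33.0 to 52.7 in LacZi cells, did not overlap between the siRNAs. Which splice forms each CD44 probe set reads was not analysed here.

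Leukocyte markers, whose cells carry much CD44, were summed for comparison: 1 of the 4 measured genes was above the filter, and the sum was 59.2 to 114 on the p53i arrays and 83.0 to 171 on the LacZi arrays. Their defining gene PTPRC had signals of 0.571 to 20.9. CD14 averaged 25.2 in p53i cells and 58.8 in LacZi cells, CD3E 40.7 and 48.3, and PTPRC 7.21 and 13.2. LYZ, at 20.3 and 9.64, went the other way. Only CD3E lay above the filter. For the fibroblast and mesenchymal list, with 1 of 7 genes above the filter, the sums were 388 to 485 in p53i cells and 415 to 601.9 in LacZi cells, and VIM had signals of 4.60 to 57.4. The part of these genes in the CD44 result was not tested.

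Of 22 partners of CD44 and genes of hyaluronan metabolism, 12 were above the filter, and 0 rose and 0 fell between the siRNAs (1.91% and 1.63% of all probe sets tested). Of the 12, 3 had an unadjusted limma p below 0.05, against 20.2% of all. EZR, which links CD44 to the actin cortex, had a difference of -0.01 with its brightest probe set. The other EZR probe sets above the filter had differences of -0.49 to -0.03, none of them called. The sheddases ADAM10 and ADAM17, which cut CD44 at the cell surface, had differences of -0.21 and -0.07. ESRP1, a splicing factor that favours the variant exons of CD44, had a difference of 0.09. CD24, the luminal surface marker often read beside CD44, averaged 15440 in p53i cells and 15231 in LacZi cells with its brightest probe set. The other CD24 probe sets had differences of -0.47 to 0.02, none of them called, with the largest drop for 208651_x_at (limma adjusted p = 0.0749). The hyaluronan synthases HAS2 and HAS3 had signals of 3.62 to 56.0 and lay below the filter.

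**Figure D3:**
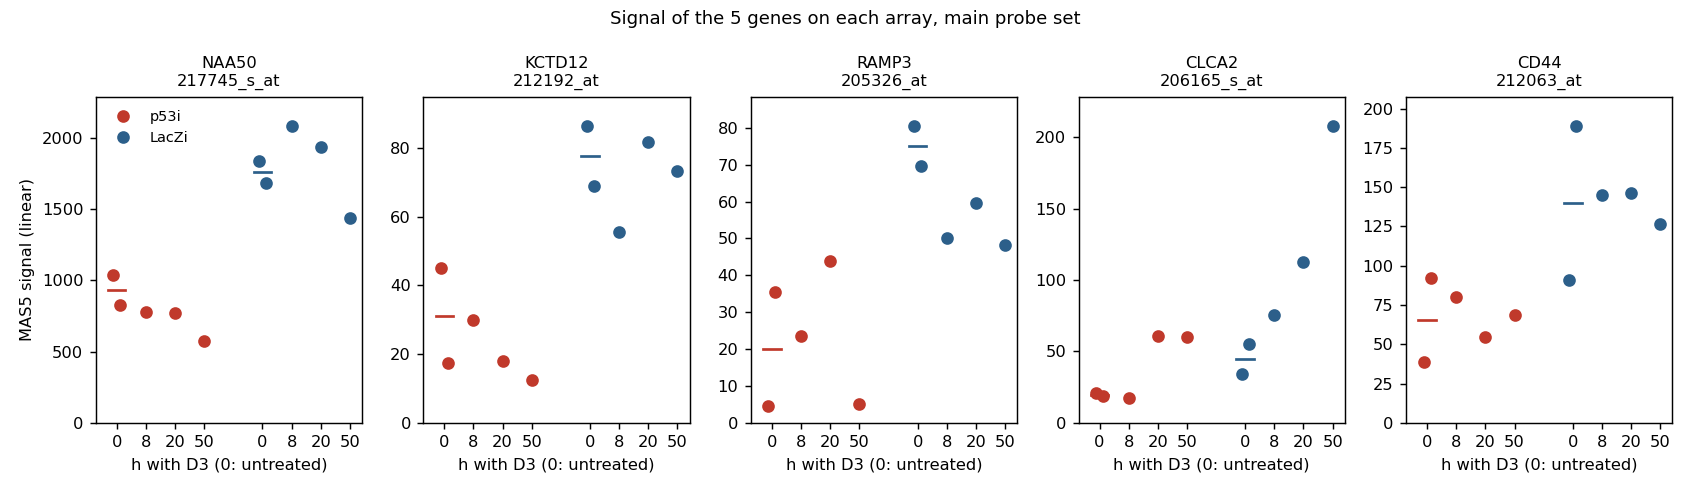
Signal of each gene's probe set with the highest mean (linear, vertical axes starting at 0) on the 10 arrays, p53i left in red and LacZi right in blue, by hours with D3; horizontal bars mark the mean of the 2 untreated arrays. NAA50, KCTD12 and RAMP3 do not overlap between the siRNAs, CD44 overlaps by a pair of untreated arrays, and CLCA2 is highest on the LacZi 50 h array at 208.

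The D3 effect was not used to pick the genes and was tested with limma over all 27337 probe sets above the filter, as the mean of the 3 times minus untreated over both siRNAs. Of the 12 member probe sets above the filter, 1 rose and 0 fell (1.10% of all probe sets tested rose and 0.885% fell). The one that rose was CLCA2 with 206165_s_at, by 0.95 ± 0.22 (SE) on the log2 scale (limma adjusted p = 0.048). Its signal was 89.0 ± 65.8 (SD, n = 6) on D3 arrays and 32.2 ± 17.0 (SD, n = 4) on untreated arrays. The untreated mean lay below the filter, so this probe set was tested because of its D3 arrays. With no filter it was not called (limma adjusted p = 0.124). The signal was above the untreated mean of its own siRNA on 5 of 6 D3 arrays, the exception being p53i at 8 h.

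For the 3 CLCA2 probe sets above the filter, the estimates were larger at the later times. Below the filter, 206164_at had untested estimates of 0.49, 0.05 and 0.32 after 8, 20 and 50 h. With 206165_s_at the effect was 0.25, 1.11 and 1.50 after 8, 20 and 50 h (SE 0.29 each), and only the 50 h effect was called (limma adjusted p = 0.942, 0.168 and 0.0274). With 206166_s_at the effects were 0.26, 1.06 and 1.64 ± 0.40, and with 217528_at they were -0.05, 0.55 and 1.23 ± 0.37 (SE at 50 h), neither of them called at 50 h (limma adjusted p = 0.0583 and 0.114). The untreated mean of 206166_s_at, 23.9, lay below the filter, so like 206165_s_at it was tested because of its D3 arrays (mean 68.7). At 50 h all 3 probe sets above the filter were above untreated in both siRNAs. For 206165_s_at, 206166_s_at and 217528_at in that order, the rise was 1.10, 1.62 and 0.55 in p53i cells and 1.90, 1.66 and 1.91 in LacZi cells.

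The CLCA2 call rested on few arrays. For the mean of the times it was lost in 9 of the 10 fits that left out 1 array, all but that without p53i untreated replicate 2, with values of 0.80 to 1.06 and limma adjusted p of 0.0415 to 0.169 over the 10. The 50 h call was lost without p53i 50 h (1.81, limma adjusted p = 0.144), LacZi untreated replicate 1 (1.35, adjusted p = 0.0728), LacZi 20 h (1.50, adjusted p = 0.0534) or LacZi 50 h (1.19, adjusted p = 0.219), and with no filter (adjusted p = 0.0707) or no intensity trend (adjusted p = 0.0638). Conversely, 206166_s_at was called at 50 h with an offset of 64 (limma adjusted p = 0.0337), with the replicate block (0.0418) and in 3 of the 10 fits without 1 array (without p53i untreated replicate 2, p53i 8 h or LacZi 8 h, limma adjusted p of 0.0335 to 0.0423), and 217528_at in 1 of them (without p53i untreated replicate 2, limma adjusted p = 0.0384).

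The basal and myoepithelial markers also stood apart by D3 in their summed signal, and no marker was compared by D3 on its own. Of the 5 measured, 3 were above the filter, and the summed signal of the list was 234 to 426 on D3 arrays and 161 to 206 on untreated arrays. KRT5, with the widest span of the list, had 2.40 to 192 and KRT14 2.00 to 25.7 over all arrays, so the sum can follow KRT5. Their part in the CLCA2 D3 effect was not tested. The labels give no harvest time for untreated cells, so the hours in culture and the hours with D3 cannot be told apart.

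**Figure D4:**
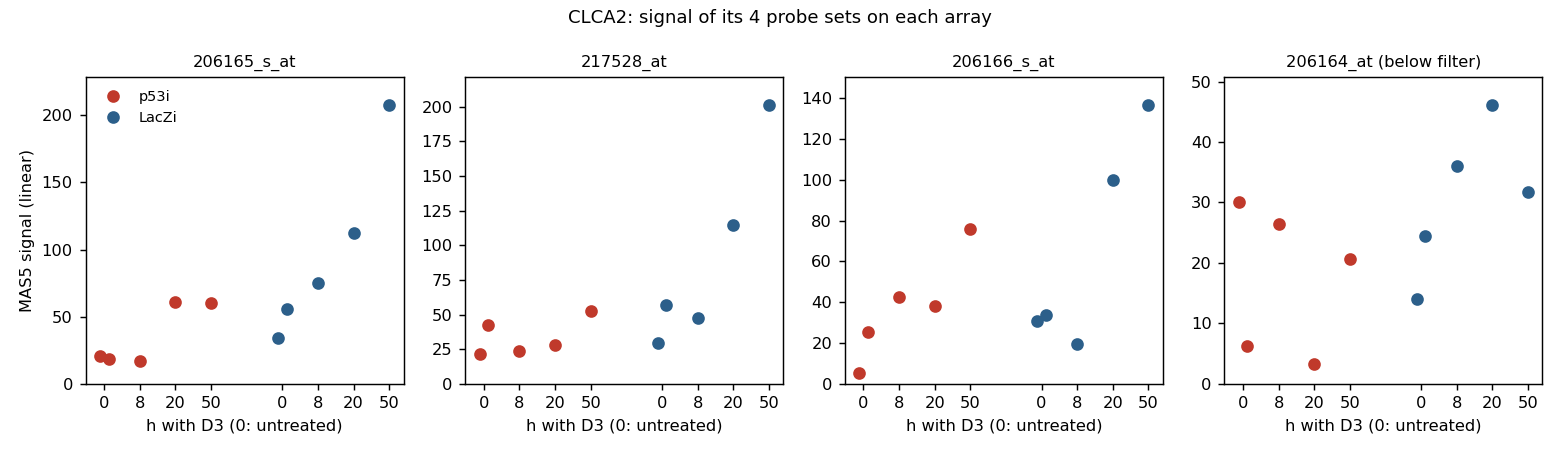
Signal of the 4 CLCA2 probe sets (linear, vertical axes starting at 0) on each array, p53i left in red and LacZi right in blue, by hours with D3 (0 is untreated, 2 arrays). In the first 3 panels the LacZi 50 h array is highest, at 208, 201 and 137, and the p53i 50 h array stands at 60.3, 52.7 and 75.7.

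The other 4 genes had no called D3 effect. At 50 h NAA50 with 217745_s_at stood at -0.48 ± 0.14 (SE, limma adjusted p = 0.106), while 222393_s_at stood at 0.01 ± 0.16 and 239138_at at -0.17 ± 0.25. KCTD12 with 212192_at had an effect of -0.24 ± 0.25 over the 3 times and RAMP3 of -0.12 ± 0.31. The 4 CD44 probe sets above the filter had effects of 0.08 to 0.13, with SEs of 0.21 to 0.24.

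At 8 and 20 h 0 of the 12 were called (0.0732% and 0.219% of all probe sets tested), with 0 and 2 at an unadjusted limma p below 0.05 (6.54% and 11.8% of all probe sets tested were). At 50 h 1 rose and 0 fell (1.00% and 0.973% of all). The siRNA by D3 interaction was called for 0 probe sets of all 27337 (0%; 1733 had an unadjusted limma p below 0.05). For the difference between 50 and 8 h, 0 of the 12 were called (0.0256% of all) and 4 had an unadjusted limma p below 0.05, namely the 3 CLCA2 probe sets, at 1.25 to 1.38, and NAA50 with 217745_s_at at -0.48 (8.14% of all probe sets tested were).

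**Figure D5:**
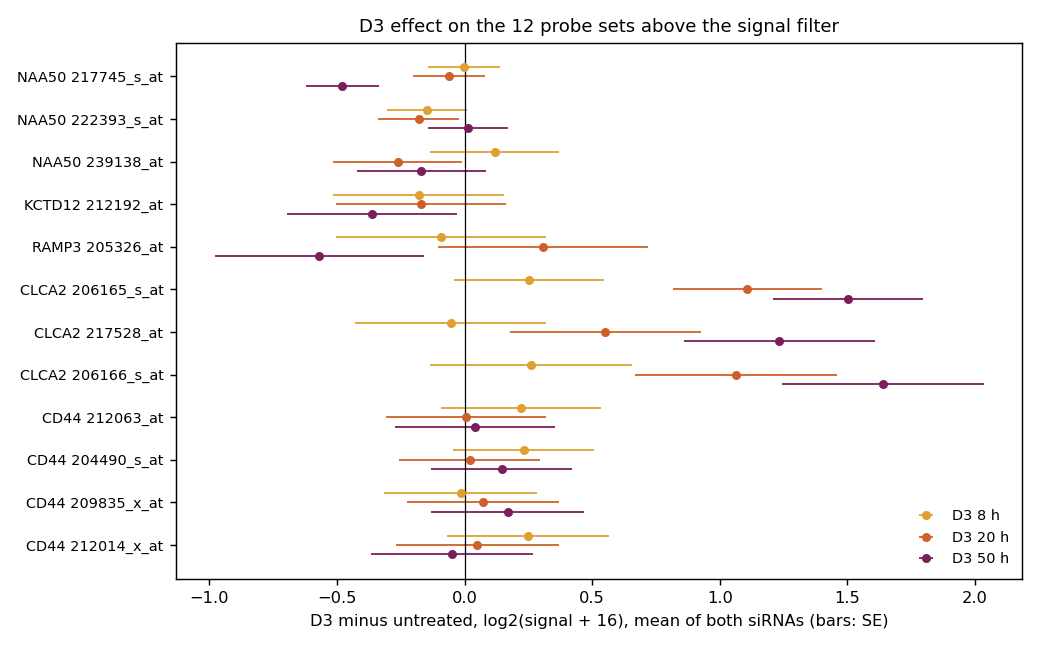
D3 effect at 8, 20 and 50 h (D3 minus untreated, log2(signal + 16), mean of both siRNAs, bars are SE) for the 12 member probe sets above the filter. The 3 CLCA2 probe sets reach 1.23 to 1.64 at 50 h, and the points of the other genes lie between -0.57 and 0.31.

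Because the genes were picked as lower at each D3 time, the difference of the D3 effect between the siRNAs was given as a value with no test. For CLCA2 the effect over the 3 times was 0.70 in p53i cells and 1.21 in LacZi cells with 206165_s_at, 0.08 and 1.08 with 217528_at, and 1.15 and 0.82 with 206166_s_at, so the probe sets did not share a direction. For NAA50 with 217745_s_at it was -0.39 in p53i cells and 0.03 in LacZi cells, while with 222393_s_at it was -0.14 and -0.07. For CD44 with 212063_at it was 0.11 and 0.07.

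Among the 5 partner lists, 52 genes were above the filter, and for D3 over the 3 times 0 rose and 1 fell (1.10% and 0.885% of all probe sets tested). This was ANO1, a calcium-activated chloride channel, which fell by 0.72 ± 0.15 (SE) on the log2 scale (limma adjusted p = 0.0382). Its signal with 218804_at was 349.5, 203 and 157 in p53i cells and 459, 341 and 238 in LacZi cells at 8, 20 and 50 h, against 560 and 334 in untreated p53i cells and 553 and 432 in untreated LacZi cells. The signal was lower at each later time in both siRNAs, with effects of -0.19, -0.77 and -1.19. The call was lost in 8 of the 10 fits without 1 array, all but those without p53i or LacZi untreated replicate 2 (values of -0.83 to -0.53, limma adjusted p of 0.0175 to 0.133). Its second probe set had an effect of -0.28 ± 0.23 (SE).

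The genes with the most similar course over the 10 arrays were found for each gene's probe set with the highest mean, by the root mean square difference between log2 values after each probe set's own mean was subtracted. For NAA50 these were ECE2, at a distance of 0.21, TMEM127 at 0.23 and BCL11B at 0.25, where the median over 22028 candidate probe sets was 0.67. ECE2 averaged 263 ± 26.5 in p53i cells and 546 ± 55.6 in LacZi cells (SD, n = 5 each). For KCTD12 they were SLC25A24, a mitochondrial carrier, at 0.21, TMEM64 at 0.23 and NAA50 itself at 0.26. For CD44 they were DRC8 at 0.12, ATOH8 at 0.24 and ZNF239 at 0.27, and DRC8 averaged 49.3 ± 16.9 in p53i cells and 96.8 ± 19.7 in LacZi cells.

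The courses of RAMP3 and CLCA2 had no neighbour as close. For RAMP3 the nearest were TRIM44 at 0.34, LDHC at 0.37 and FAM209B at 0.39. For CLCA2 they were SGPP2 at 0.29, TMEM154 at 0.31 and AKR1B10, an aldo-keto reductase, at 0.33. SGPP2, a sphingosine phosphate phosphatase, averaged 121 ± 76.0 in p53i cells and 230 ± 126 in LacZi cells (SD, n = 5 each). The likeness covers siRNA and D3 together, and all arrays of a gene share their scaling.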

How the data were processed

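The deposited table held 1 MAS5 signal intensity per probe set and array, linear and never logged; the submitters' processing notes name MAS5 (version not given in the sources used here), and the mean of each array without its lowest and highest 2% was 200.03 in the file. GEO's platform annotation gave 41097 probe sets 1 gene symbol, 1801 several and 11777 none. No further normalization was applied. Signals were taken as log2(signal + 16). The upper 50% of probe sets by mean (27337) entered an additive limma 3.58.1 model (R 4.3.3, intensity trend, two-sided) with siRNA and D3 time as terms (5 residual degrees of freedom). P-values were Benjamini-Hochberg adjusted over all of them, with a threshold of 0.05. Each D3 time rests on 1 array per siRNA, assumed to vary like the others. The model was tested on simulated data. Members, partner lists and named genes (all member probe sets, called partners and close relatives, and the 3 most alike genes) were chosen with earlier results of these data known. Some partner genes were not analysed here. Array number limits the precision, and low MAS5 signals are noisy. Detection calls were not used. The untreated arrays share replicate numbers 1 and 2 between siRNAs. Alternatives covered scaling, offset, filter, probe-set choice, trend, replicate block, ACTB ratio and each array left out.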

Additional observations from a re-analysis of the deposited data

Results flagged for a closer look

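With 2 CD44 probe sets, all 3 D3 arrays of one siRNA lay above its untreated mean and all 3 of the other below it on the log2(signal + 16) scale. These differences are given without a test because the genes were chosen at the D3 times. The interaction fit, with 4 residual degrees of freedom, called 0 of all 27337 probe sets above the filter. It therefore cannot decide whether 209835_x_at differs, and it did not include 234411_x_at. With 209835_x_at the D3 effect was -0.08 in p53i cells and 0.24 in LacZi cells, a difference of -0.32. The LacZi 8 h array was only 0.03 above its untreated mean on that scale, and on the linear scale it was below it, at 73.2 against 75.98. Every D3 array of this probe set lay between the 2 untreated arrays of its siRNA. These were at 39.3 and 56.4 in p53i cells and at 46.7 and 105 in LacZi cells. With 234411_x_at, which lay below the signal filter with signals of 1.32 to 28.5, the D3 effect was 0.77 in p53i cells and -0.50 in LacZi cells, a difference of 1.26. Its untreated LacZi arrays were at 1.59 and 28.5, and its LacZi D3 arrays, at 2.32, 6.43 and 3.04, lay between them. The 2 probe sets of this gene thus differed in opposite directions.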

How the results depend on the processing

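The 12 member probe sets lower in p53i cells in all matched comparisons became 8 to 15 when 1 array was left out. In the upper 25% by signal they were 2, and with 1 probe set per gene 5, which were all the member probe sets left in those settings. The 1 member call for D3 (CLCA2) became 0 with quantile normalization, median centring, no offset, no filter, no intensity trend, or without the 2 arrays highest in ACTB ratio, and was 0 to 1 when 1 array was left out. It was also 0 with the upper 25%, where this CLCA2 probe set was not among those tested. Among the partner genes, the 1 called between siRNAs (NAA15) became 0 with the ACTB ratio as covariate or no trend and 2 with the upper 25% or 1 probe set per gene, and the count was 0 to 3 when 1 array was left out. The 1 called for D3 (ANO1) became 0 with no filter or no trend and 2 with the upper 25%, 1 probe set per gene or without the 2 arrays highest in ACTB ratio, and the count was 0 to 4 when 1 array was left out. With the replicate number of the untreated arrays as a replicate block, partner counts were 2 between siRNAs and 3 for D3; the deviations of replicate 1 correlated at r = 0.13 across 27337 probe sets, which with 2 pairs does not establish pairing. The interaction and the 50 h against 8 h comparison stayed at 0 in all settings run. The cause of these shifts was not tested. No detection limit was computed for the member probe sets.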
